A study of Mus musculus with 10 samples.

Results

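Trypsinogens are the inactive precursors of trypsin, the protease that acinar cells of the pancreas store in zymogen granules and release into the gut. Trypsin cleaves and so activates the other pancreatic zymogens and trypsinogen itself, and Spink1, the pancreatic secretory trypsin inhibitor that acinar cells package with them, blocks trypsin that forms too early. Activation of trypsinogen inside the pancreas is a classic early event of pancreatitis, and human hereditary pancreatitis maps to PRSS1 and SPINK1. The genes described here are the 6 trypsinogens Prss1, Prss2, Prss3, Try4, Try5 and Try10 and the inhibitor. They were chosen by name, but with earlier results of these data known. All 7 members were among the 12160 genes in the deposited table, the inhibitor under its current symbol Spink1, which RefSeq gives as the same gene as Spink3.

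The libraries came from genetically wild-type, male CD1 mice, whose strain field reads Mixed. All mice had pancreatitis induced with 4 cycles of 250 μg/kg caerulein, a cholecystokinin analog, followed by 0 to 2 days of recovery. Epithelial cells were sorted from 5 mice as negative for the leukocyte antigen Cd45 and positive for EpCAM. Of these, tuft cells were Siglec f+ and non-tuft cells Siglec f-neg, and 5 libraries of 100 cells were made from either kind, each tuft library from an individual mouse. No group without caerulein is included. Mouse age is not given in the sources used here. The non-tuft group is defined only by the absence of Siglec f and can hold acinar, ductal and other epithelial cells. RNA was sequenced by Smart-Seq2, which amplifies polyadenylated RNA from few cells.

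Each value is log2(RPKM + 1), where RPKM is a read level scaled for gene length and library size, quantile normalized across the 10 libraries. Quantile normalization gives every library the same set of values, so a value is set by the rank of the gene in its library and the depth of a library cannot be read from it. Siglecf, the gene of the sort marker, had values of 0 to 1.61 in non-tuft cells against 5.62 to 7.52 in tuft cells. Epcam was at 7.44 to 9.08 and 9.19 to 10.87, respectively, and all 10 tuft markers examined were called higher in tuft cells. The summed linear level of the 10 acinar markers was 53022 to 74850 RPKM in non-tuft cells and 557 to 56175 RPKM in tuft cells. The highest tuft sum, in tuft library 4, came mainly from Ctrb1, which was at 127% of its non-tuft mean there. The other 9 markers were at 0 to 34.6%. Ctrb1 was at 15.65 on the log2 scale in tuft library 4 and non-tuft library 5, and at 15.21 in non-tuft libraries 1 to 4. Clps, the colipase, had these values the other way round, so the 127% follows from an exchange of ranks. Over the 10 markers the mean log2 value was 6.90 in tuft library 4 and 6.57 in tuft library 1, against 9.39 to 10.41 in the non-tuft libraries. Tuft library 4 had the highest trypsinogen sum of the tuft group, and the values of every member without it are given with its result.

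The 6 trypsinogen genes lie together on chromosome 6, at chr6:41252268-41475078 of NCBIM37 (mm9), the build the reads were mapped to, with 4 genes on the plus strand and 2 on the minus strand. The stretch of 222811 bases runs through the T cell receptor beta locus. It starts with Try4 at chr6:41252268-41255531 and continues with Try5, Try10, Prss3 and Prss1. It ends with Prss2 at chr6:41471786-41475078. The inhibitor gene is on another chromosome. A further 6 trypsinogen genes of the same chromosome are in the table.

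The trypsinogens are close copies, and their activation site shows how little separates them. The 60 coding bases numbered 31 to 90 from the start codon are printed for 4 members from the transcripts of that annotation. The capitals mark 4 aspartate codons and the lysine codon after which trypsinogen is cut to give trypsin.
Try4: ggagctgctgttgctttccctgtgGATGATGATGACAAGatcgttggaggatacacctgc
Prss2: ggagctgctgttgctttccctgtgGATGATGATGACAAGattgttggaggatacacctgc
Prss3: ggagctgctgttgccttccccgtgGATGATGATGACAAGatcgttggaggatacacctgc
Try10: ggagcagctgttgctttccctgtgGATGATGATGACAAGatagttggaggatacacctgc
Prss1 and Try5 had the same 60 bases as Try4, and the capitalised codons were the same in all 6 members. The coding sequences of the 6 members, 741 bases each, were 88.7 to 97.4% identical over the 15 pairs, with a median of 92.2%. Try4 and Try5 were the closest pair at 97.4%, followed by Prss1 and Prss3 at 96.4%. Outside the 6 members, Gm10334 differed from Prss3 at 7 of 741 aligned positions (99.1% identity) and Gm5771 from Prss1 at 18 (97.6%). Gm2663 and 1810009J06Rik were more distant, at 69.7 to 72.5% identity to the members. In the transcripts used, codons for 4 aspartates and a lysine in a row were found in Gm10334 and 2210010C04Rik. They were not found in Gm5771, Gm2663 or 1810009J06Rik.

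Reads of 50 bases can therefore match more than 1 trypsinogen gene. Of all 50-base windows of the Prss3 transcript, 66.9% occurred in another trypsinogen transcript, mainly that of Gm10334. The share was 64.2% for Try4, 54.9% for Prss1, 51.5% for Try5, 24.5% for Try10 and 7.83% for Prss2. Prss2 is thus the member whose value rests most on sequence of its own. How reads that match several genes were divided is not given in the sources used here, and the splits between Try4 and Try5, Prss1 and Gm5771, and Prss3 and Gm10334 are uncertain.

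**Figure D1:**
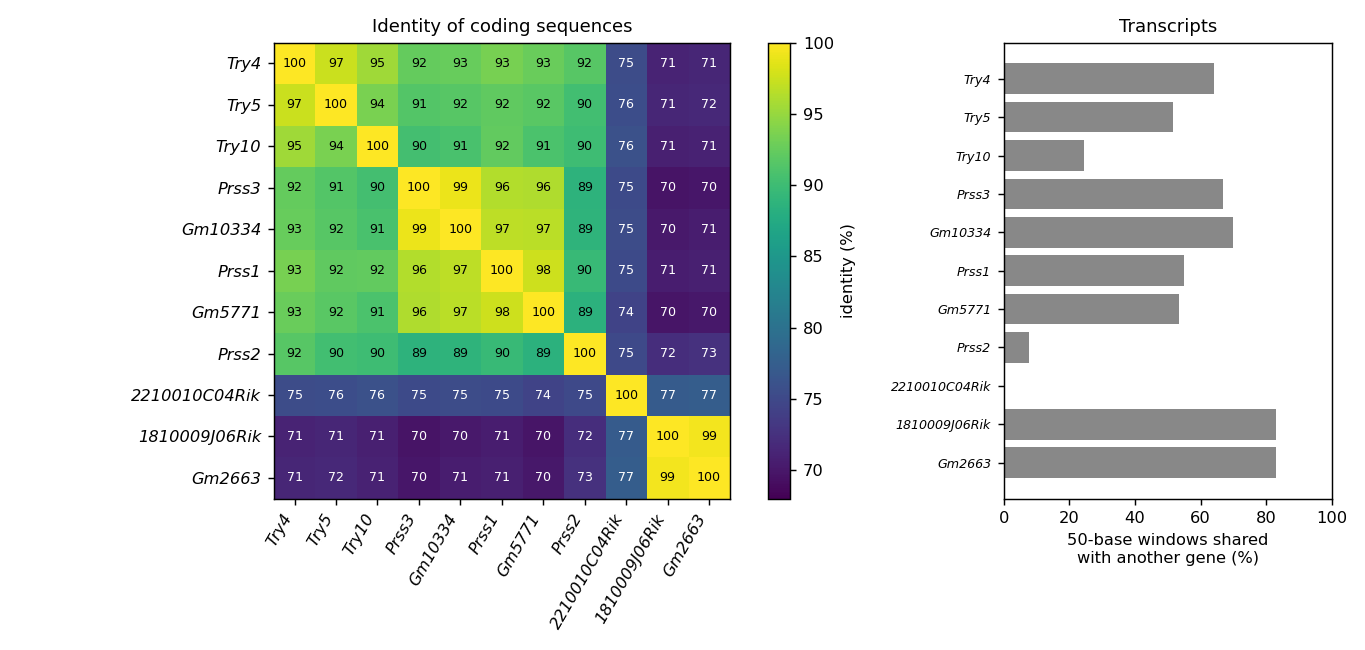
Left, percent identity of the coding sequences of 11 trypsinogen genes, from pairwise alignment. Right, percent of the 50-base windows of each transcript that also occur in another trypsinogen transcript, where Prss2 has 7.83% and Prss3 66.9%.

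The mean of each of the 7 members was below that of non-tuft epithelial cells in the tuft cells, and 5 of the 7 passed the test, Prss1, Prss3, Try5, Try10 and Spink1. The test was limma across all 12160 genes, and a gene was called at a Benjamini-Hochberg adjusted p under 0.05 where its fold change also exceeded 4. By this rule 3.99% of all genes were called lower and 4.32% higher in tuft cells. No member was called higher. The median log2 difference was −4.27 over the 7 members and 0.02 over all genes. Without tuft library 4, 6 of the 7 were called lower, and without any other single library 4 were. Beside this, 8 of the 10 acinar markers were also called lower in tuft cells. Fewer acinar cells in a library and less trypsinogen RNA per cell cannot be told apart in bulk samples.

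**Figure D2:**
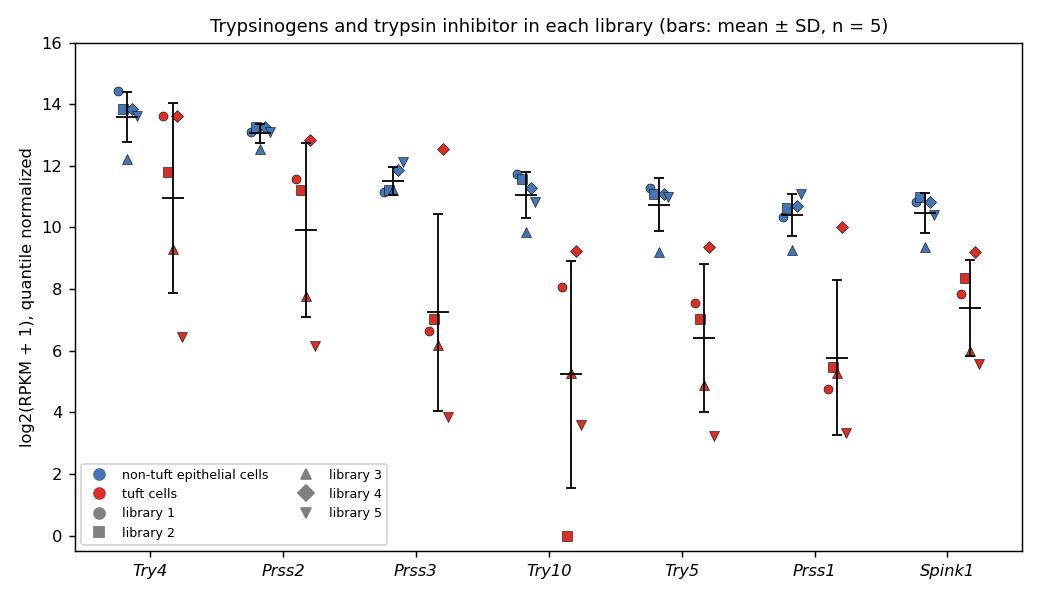
Level of each member as log2(RPKM + 1), quantile normalized, in the 5 non-tuft libraries (blue) and the 5 tuft libraries (red), with the mean and SD of each group in black and the marker shape giving the library number. Tuft libraries 4 (diamond) and 5 (downward triangle) mark the top and bottom of the tuft values for most members.

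Try4 and Prss2 were the most abundant trypsinogens. Try4 was listed at 14.43, 13.83, 12.22, 13.83 and 13.61 on the log2 scale in non-tuft libraries 1 to 5. In tuft libraries 1 to 5 it was at 13.61, 11.79, 9.32, 13.61 and 6.44. The groups overlapped, with tuft libraries 1 and 4 at the level of non-tuft library 5. The log2 difference of −2.63 (standard error [SE] 1.16, n = 5 per group) did not pass the threshold of limma, with an adjusted p of 0.176, and the two-sided exact permutation test over the libraries gave p = 0.0714. Leaving out tuft library 4 gave a difference of −3.30, with an adjusted p of 0.114 in limma.

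Prss2, which encodes the anionic trypsinogen, was more even across the non-tuft libraries, at 13.11, 13.27, 12.53, 13.27 and 13.11. It was at 11.57, 11.21, 7.77, 12.86 and 6.14 in tuft libraries 1 to 5. The tuft values overlapped the non-tuft values only through tuft library 4, which was above non-tuft library 3 only. The log2 difference was −3.15 (SE 1.05), with an adjusted p of 0.0713 in limma and an exact permutation p of 0.0159, and it was not called. Without tuft library 4 it was −3.89 with an adjusted p of 0.0304 in limma, and it was called.

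Prss3 was listed between 11.16 and 12.14 in the non-tuft libraries. In tuft libraries 1 to 5 it was at 6.64, 7.02, 6.19, 12.53 and 3.85. Tuft library 4 was above all 5 non-tuft libraries, whereas the other 4 tuft libraries were below all of them. The log2 difference was −4.27 (SE 1.18), which limma called with an adjusted p of 0.0314, with an exact permutation p of 0.0476. The call depended on the set of libraries. Without tuft library 4 the adjusted p in limma was 0.000285, at a difference of −5.59, and without any other single library it lay between 0.0602 and 0.0892.

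Prss1 was the lowest trypsinogen on average in non-tuft cells, at 10.36, 10.64, 9.29, 10.68 and 11.10. It was at 4.76, 5.46, 5.28, 10.02 and 3.32 in the tuft libraries. Tuft library 4 alone reached the non-tuft range, where it was above non-tuft library 3 only. The log2 difference of −4.64 (SE 0.97) corresponds to a 25.0-fold lower level on the log2(RPKM + 1) scale, and it passed limma with an adjusted p of 0.00680 and an exact permutation p of 0.0159. With tuft library 4 left out it was −5.71, with an adjusted p of 0.000138 in limma.

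Try5, the closest copy of Try4, was at 11.28, 11.10, 9.21, 11.10 and 10.97 in the non-tuft libraries. The tuft values were 7.55, 7.01, 4.87, 9.38 and 3.23. Tuft library 4 and non-tuft library 3 overlapped. The log2 difference of −4.32 (SE 0.95), a 20.0-fold lower level on this scale, passed limma with an adjusted p of 0.00906, and the exact permutation p was 0.0159. In the absence of tuft library 4 the difference was −5.07.

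Try10 had the largest difference of the 7 members, and its groups did not overlap. It was at 11.75, 11.57, 9.85, 11.28 and 10.82 in the non-tuft libraries and at 8.07, 0, 5.27, 9.24 and 3.58 in the tuft libraries. In tuft library 2 the gene was listed at 0, although Try4 and Prss2 were at 11.79 and 11.21 in that library. The log2 difference was −5.82 (SE 1.35), with an adjusted p of 0.0131 in limma and an exact permutation p of 0.00794, the smallest that 5 against 5 libraries allow. Without tuft library 2 it was −4.51 (adjusted p 0.0147 in limma), and without tuft library 4 it was −6.82 (adjusted p 0.00619).

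The inhibitor Spink1, whose gene is on chromosome 18 (chr18:43887723-43896891, minus strand, mm9), was the other member without overlap between the groups. Over all genes, every tuft library was below every non-tuft library for 5.12%. Spink1 was at 10.82, 10.97, 9.38, 10.82 and 10.39 in the non-tuft libraries and at 7.84, 8.37, 5.98, 9.21 and 5.56 in the tuft libraries. Tuft library 4 was again the highest of its group, just below the lowest non-tuft library. The log2 difference was −3.09 (SE 0.67), an 8.49-fold lower level on this scale, with an adjusted p of 0.00899 in limma and an exact permutation p of 0.00794. Without tuft library 4 it was −3.54, with an adjusted p of 0.00532 in limma.

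A wide spread within the tuft group was common to the trypsinogens but not particular to them. Across the 6 trypsinogens the SD of the log2 values was 0.306 to 0.858 among non-tuft libraries and 2.40 to 3.68 among tuft libraries. Across 10 other zymogens and cofactors that trypsin cleaves it was 0.198 to 1.38 and 1.94 to 3.87. The granule protein Gp2 went the other way, at 0.915 and 0.485. Tuft library 5 was the lowest for every trypsinogen other than Try10, and its 6 values were 0.439 to 0.801% of the non-tuft mean on the linear scale. Even there the genes were listed well above 0, at log2 values of 3.23 for Try5 to 6.44 for Try4. Tuft library 5 also had the lowest acinar marker sum, at 557 RPKM, whose part in these values was not tested.

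**Figure D3:**
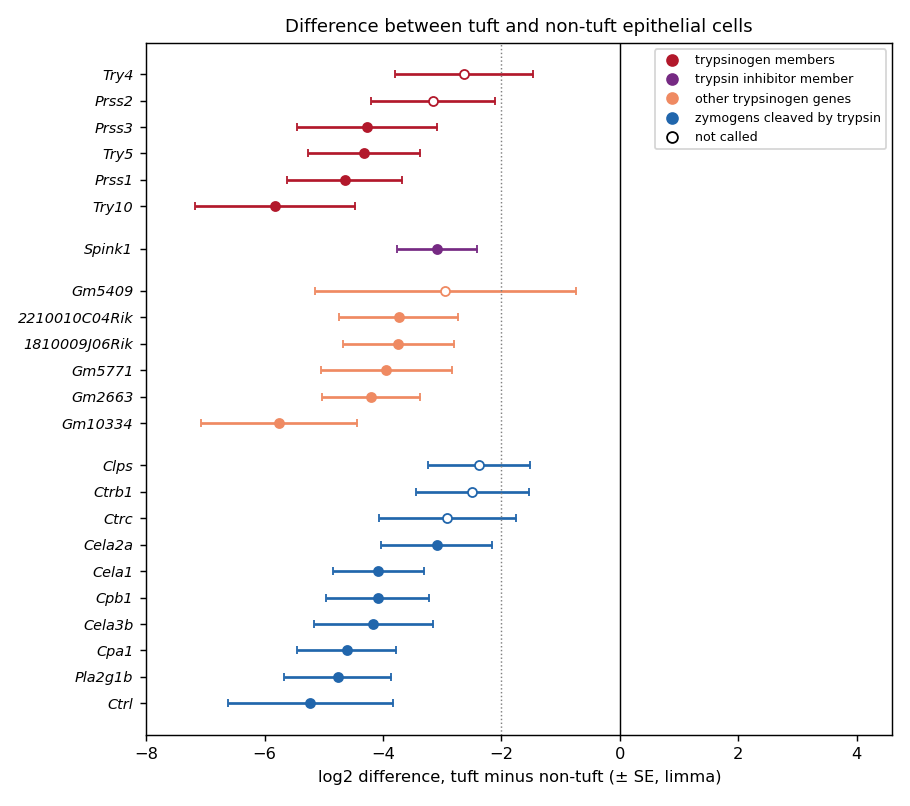
Difference in mean log2 value between tuft and non-tuft epithelial cells (points) with its standard error from limma (bars) for the 6 trypsinogens, Spink1, 6 other trypsinogen genes and 10 zymogens that trypsin cleaves. Filled points were called, open points were not, and the dotted line marks a log2 difference of −2. All 23 values are below 0.

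On the linear scale, the 6 trypsinogens made up 2.72 to 7.23% of the summed values of a non-tuft library, with a median of 6.04%. In tuft libraries 1 to 5 they made up 2.88, 1.11, 0.184, 5.03 and 0.0353%. Tuft libraries 1 and 4 were within the non-tuft range and the other 3 were below it. The low end of that range was non-tuft library 3 alone. The other non-tuft libraries were at 5.69 to 7.23%, above all tuft libraries. Try4 and Prss2 together provided 66.9 to 76.4% of this trypsinogen sum in the non-tuft libraries and 70.7 to 96.4% in the tuft libraries. Summed before taking log2, the 6 genes differed by −3.05 between the groups, against a median of −4.30 for the single genes, because the sum follows Try4 and Prss2, whose differences were the smallest.

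Levels between the genes were compared per length within each library. Try4 ranked first among the trypsinogens in 9 of 10 libraries and Prss2 in the other, non-tuft library 3. In non-tuft cells the mean log2 levels ran from Try4 (13.59) through Prss2 (13.06), Prss3 (11.52), Try10 (11.05), Try5 (10.73) and Spink1 (10.48) to Prss1 (10.41). Only the step from Prss2 to Prss3, of 1.54 ± 0.453 (SD, n = 5), was in the same direction in all 5 non-tuft libraries. In tuft cells Try4 exceeded Prss2 by 1.04 ± 0.724 (SD, n = 5) and Prss2 exceeded Spink1 by 2.52 ± 1.33, both in all 5 libraries. Spink1, Prss3, Try5, Prss1 and Try10 followed, and none of the steps between these neighbours was larger than its SD over the 5 libraries.

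Spink1 amounted to 4.23 to 5.96% of the summed trypsinogens in the non-tuft libraries. In tuft libraries 1 to 5 it amounted to 1.42, 5.31, 6.04, 2.10 and 23.4%. The tuft values lay on both sides of the narrow non-tuft range. The high value in tuft library 5 went with the lowest trypsinogen sum, at 197 RPKM, and the low values in tuft libraries 1 and 4 with the highest trypsinogen sums of the tuft group. That sum is the denominator of the percent, so the inverse relation is partly built in. Spink1 itself was at 46.2 RPKM in tuft library 5, 229 in tuft library 1 and 592 in tuft library 4.

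**Figure D4:**
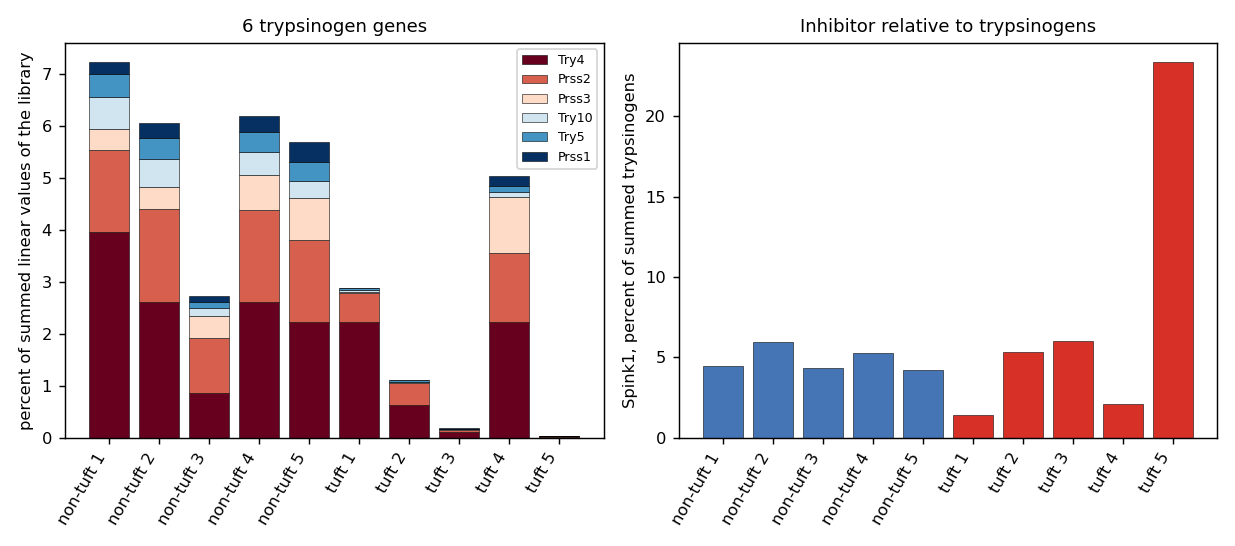
Left, percent of the summed linear values of each library that the 6 trypsinogens make up, stacked by gene, where tuft library 4 reaches 5.03% and tuft library 5 0.0353%. Right, linear level of Spink1 as a percent of the summed 6 trypsinogens in each library, 4.23 to 5.96% in the non-tuft libraries and 1.42 to 23.4% in the tuft libraries.

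The 2 tuft libraries with high trypsinogen sums differed in which genes carried it. Try4 had rank 5 in tuft libraries 1 and 4, and so the same quantile normalized value, 91.1% of the non-tuft mean on the linear scale. The shared value shows equal rank and not equal RNA. Prss2 was at 35.0% of the non-tuft mean in tuft library 1 and 85.5% in tuft library 4. Prss3 was at 3.24% in tuft library 1 and 195% in tuft library 4, a difference between the libraries of 5.90 on the log2 scale. Prss1 was at 1.78% and 70.4%, a difference of 5.25. For Try5, Try10 and Spink1 the difference was 1.82, 1.17 and 1.37.

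The near copies of Prss1 and Prss3 showed the same contrast between these libraries. Gm5771, the closest gene to Prss1, was at 3.84% of the non-tuft mean in tuft library 1 and 206% in tuft library 4. Gm10334, the closest gene to Prss3, was listed at 0 in tuft library 1 and was at 67.2% in tuft library 4. In tuft libraries 2, 3 and 5 these 4 genes were at or below 4.22% of the non-tuft mean. The coding sequences of the 4 genes were 96.2 to 99.1% identical to each other, and reads that fit several of them cannot be told apart.

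Of the 6 other trypsinogen genes in the table, 5 were called lower and 0 higher in tuft cells, with a median log2 difference of −3.84. Gm10334 had the largest difference, −5.75 (SE 1.31, adjusted p 0.0115 in limma), and Gm2663 was at −4.20 (SE 0.83, adjusted p 0.00484). The size of the Gm10334 difference rests in part on tuft library 1, where it was listed at 0, against 2.36 to 9.65 in the other tuft libraries. Gm5771, 1810009J06Rik and 2210010C04Rik, the last of which encodes the mouse cationic trypsinogen, differed by −3.94, −3.74 and −3.74. The pseudogene Gm5409 was not called, at −2.95 with an adjusted p of 0.454 in limma. It was listed at 0 in 4 tuft and 3 non-tuft libraries and at 10.28 and 10.36 in non-tuft libraries 1 and 2. The count was 5 without tuft library 4, 4 without non-tuft library 3 or tuft library 1 or 5, 3 without non-tuft library 1, 2 or 4 or tuft library 2, and 2 without non-tuft library 5 or tuft library 3.

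Trypsinogen activators and degraders did not move together. Ctsb, the cathepsin that can activate trypsinogen in the acinar cell, had a log2 difference of 0.41 (SE 0.49, adjusted p 0.645 in limma). Ctsd, a cathepsin that processes Ctsb, had a difference of −0.05 (SE 0.45, adjusted p 0.961). Ctsl, which degrades trypsinogen, was called lower in tuft cells, with a log2 difference of −3.53 (SE 0.76, adjusted p 0.00802), and its groups did not overlap. Ctrc, chymotrypsinogen C, which also degrades trypsinogen, was at −2.92 (SE 1.16, adjusted p 0.132) and was not called. Enteropeptidase, the gut enzyme that activates trypsinogen, has no value here.

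Of 7 other trypsin and serine protease inhibitors in the table, 2 were called lower and 1 higher. Serpini2, a pancreatic serpin, and Ambp, the precursor of bikunin, had log2 differences of −4.93 (adjusted p 0.000381) and −5.17 (adjusted p 0.00117) in limma. Spint2, a Kunitz inhibitor of membrane-bound serine proteases, was higher by 2.71 (adjusted p 0.00372), and its values were 11.16 to 13.44 in tuft cells and 9.01 to 10.43 in non-tuft cells. Of 11 other proteases of the trypsin fold, 3 were called lower and 1 higher. The count higher was 3 without non-tuft library 3, 2 without tuft library 4, 0 with a pseudocount of 10 and 4 when centred on ribosomal protein genes, and the count lower was 1 under the last 2 settings. The 3 with the smallest p were Klk1 at −4.42, Hpn at −2.76 and Prss32, the gene called higher, at 2.84 (adjusted p 0.00112, 0.00374 and 0.0130 in limma).

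Of 10 pancreatic zymogens and cofactors that trypsin cleaves, 7 were called lower and 0 higher in tuft cells, with a median log2 difference of −4.09. The carboxypeptidases Cpa1 and Cpb1 differed by −4.61 and −4.09. The elastases Cela1, Cela2a and Cela3b differed by −4.08, −3.10 and −4.16, the chymotrypsin-like Ctrl by −5.22 and the phospholipase Pla2g1b by −4.77. The 3 that were not called were Ctrb1 at −2.49 (adjusted p 0.118 in limma), Ctrc and Clps at −2.37 (adjusted p 0.0988). Clps, the colipase, and Ctrb1, chymotrypsinogen B, had the highest non-tuft means of the list, 15.56 and 15.30. The call of Cela2a was kept only without tuft library 1, 2 or 5 among the libraries left out and was lost with the replicate block (adjusted p 0.0588), and that of Ctrl was lost without any 1 non-tuft library or tuft library 5. Cela3b lost its call without tuft library 3 (adjusted p 0.0517), and Ctrb1 gained one without tuft library 4 (−3.20, adjusted p 0.0399).

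The genes whose profile over the 10 libraries was nearest to the mean trypsinogen profile were Gm2663, 1810009J06Rik, Sycn, Cpb1 and Cela3b. The measure was the root mean square difference between centred log2 profiles, which was 0.659, 0.689, 0.695, 0.741 and 0.784. The first 2 are themselves trypsinogen genes, 99.5% identical to each other, and Sycn encodes syncollin, a zymogen granule protein. Of the members, Try5 was nearest to that mean profile (0.485) and Try10 farthest (1.91).

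Of 7 acinar transcription factors in the table, 4 were called lower, namely Ptf1a, Rbpjl, Nr5a2 and Bhlha15. Ptf1a and Rbpjl, subunits of the complex that switches on digestive enzyme genes, differed by −4.51 (SE 0.37, adjusted p 1.01e-05 in limma) and −5.25 (SE 0.49, adjusted p 2.86e-05). Bhlha15, also known as MIST1 and needed for granule organisation, differed by −3.79 (SE 0.46, adjusted p 0.000178). Nr5a2 differed by −2.60, with an adjusted p of 0.0399. Its call was lost with the replicate block (adjusted p 0.0597), with a pseudocount of 0.1 or 10 (0.106 and 0.0606), when centred on ribosomal protein genes (0.0840) and when any 1 library was left out other than non-tuft 3 or 5 or tuft 1 (0.0603 to 0.109). Gata4 (−0.42), Gata6 (−1.10) and Xbp1 (0.10) were not called.

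In tuft library 4, where the trypsinogens were at 25.8 to 195% of the non-tuft mean, the 7 acinar transcription factors were spread widely. Ptf1a was at 2.01%, Bhlha15 at 3.61% and Rbpjl was listed at 0, whereas Nr5a2 was at 15.1%, Gata6 at 37.5%, Gata4 at 53.5% and Xbp1 at 83.3%. Ptf1a and Rbpjl are low genes, with non-tuft means of 26.5 and 63.0 RPKM. Each was listed at 0 in 3 tuft libraries, so their percents lie near the floor. Of the granule proteins, Cuzd1 was at 1.71%, Gp2, the major membrane protein of zymogen granules, at 2.23%, Zg16 at 7.83% and Sycn at 20.0%, while Rab27b, Vamp2 and Vamp8 were at 166 to 255% and Rab3d lay within its non-tuft range of 76.5 to 158%. The zymogens in tuft library 4 ranged from 6.09% for Pla2g1b to 127% for Ctrb1, with a median of 29.1%. Its tuft marker sum, 2427 RPKM, was the lowest of the tuft libraries, which ranged up to 7367. The ductal marker sum was 578 RPKM there, within the 564 to 985 of the tuft libraries. The part of acinar RNA in these values was not tested.

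**Figure D5:**
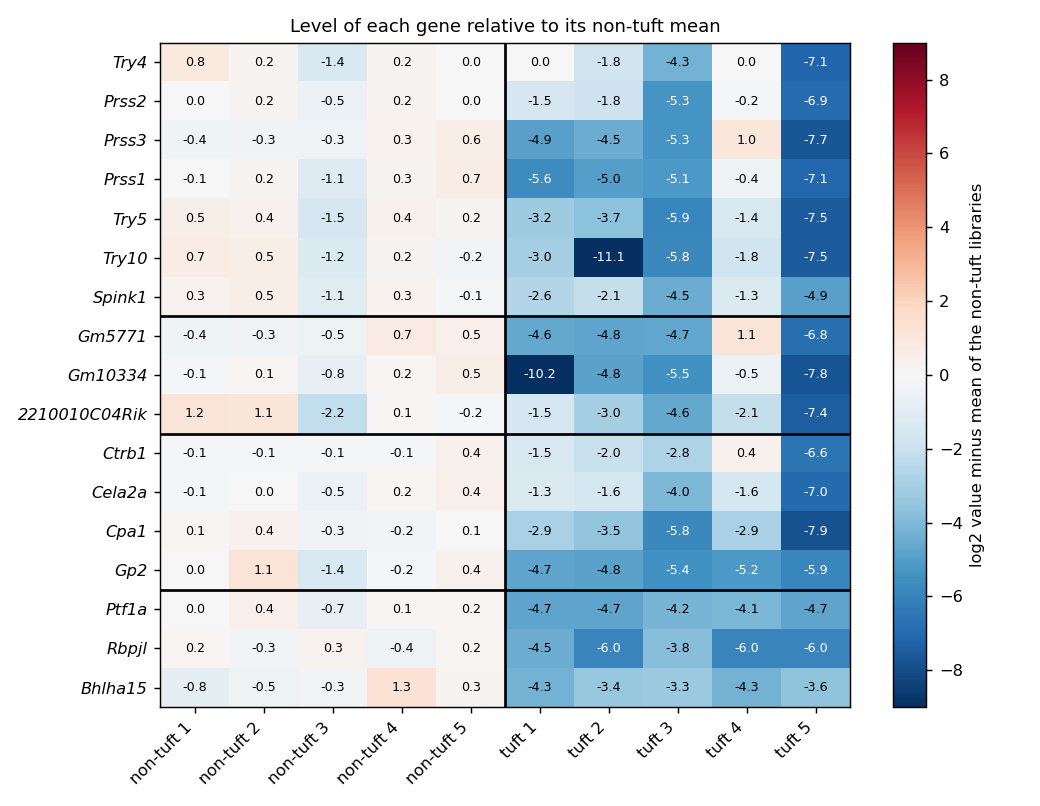
Log2 value of each gene minus its mean in the non-tuft libraries, in each library. Blocks from top to bottom are the members, other trypsinogen genes (Gm5771, Gm10334, 2210010C04Rik), zymogens (Ctrb1, Cela2a, Cpa1) with Gp2, and acinar transcription factors. In tuft library 4 the 6 trypsinogen members lie between −1.8 and 1.0, and Gp2, Ptf1a, Rbpjl and Bhlha15 at −4.1 or below. The other 4 transcription factors and the remaining other trypsinogen genes, zymogens and granule proteins are not plotted.

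The start of the Prss1 and Try4 genes is shown because its letters can be read against the factors named above. RefSeq promoters were found for Try4, Prss3, Prss1 and Prss2. The last 110 bases before the gene start are printed from GRCm38.p6, on the plus strand, at chr6:41302162-41302271 for Try4 and chr6:41458820-41458929 for Prss1. Capitals mark CAGGTG, the reverse complement of the E-box CACCTG, and TATAAA.
Try4: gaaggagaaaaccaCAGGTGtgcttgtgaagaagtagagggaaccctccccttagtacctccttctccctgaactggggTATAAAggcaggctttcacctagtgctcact
Prss1: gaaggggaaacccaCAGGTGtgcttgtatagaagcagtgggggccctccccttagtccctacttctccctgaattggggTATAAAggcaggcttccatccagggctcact
In both genes the E-box lay 96 bases and TATAAA 31 bases before the start, and Prss1 had a further E-box at 183 bases. Within 250 bases before the start, CACCTG on either strand was found in 4 of these 4 promoters and in 17.2% of all 32851 promoters of that length. In Prss3 and Prss2 it lay 143 and 169 bases before the start. TATAAA on the gene strand was found in 4 of 4 and in 7.59% of all, and TTTCCC on either strand, letters of the other part of the site of the Ptf1a complex, in 2 of 4 and in 21.9%. The 4 promoters belong to genes that are close copies, so their matches are not independent of each other. These matches describe letters and are not evidence of binding.

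Of the receptors linked to trypsin or caerulein, Cckar, the cholecystokinin receptor through which caerulein acts on acinar cells, was called lower in tuft cells, with a log2 difference of −4.73 (SE 0.41, adjusted p 1.46e-05 in limma). Its groups did not overlap. F2rl1, the protease-activated receptor that trypsin cleaves, had a log2 difference of −0.91 (SE 0.59, adjusted p 0.376) and a highest value of 2.77. F2r, the thrombin receptor, had a difference of 0.36 (adjusted p 0.654).

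Of 8 zymogen granule proteins, 4 were called lower and 0 higher. Gp2, Cuzd1 and Sycn had the smallest p of those called with log2 differences of −5.21, −6.28 and −4.74 (adjusted p 2.69e-05, 0.000106 and 0.00415 in limma). The other 4, the trafficking proteins Rab3d, Rab27b, Vamp2 and Vamp8, differed by 0.02 to 1.58 and were not called, although Vamp8 had an adjusted p of 0.0161 at a fold change under 4. Of 7 other genes linked to pancreatitis in people, 3 were called lower. These were Cel, a lipase (−5.15), the carboxypeptidase Cpa1 and the claudin Cldn2 (−2.79, not called with the replicate block, adjusted p 0.0635).

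Markers of other cell types moved with the groups in part. Of 8 ductal markers 2 were called lower (Spp1 and Tff2), but 1 with the replicate block, and also 1 when non-tuft 2, 3 or 4 or tuft 1, 3 or 4 was left out. Ductal sums were 1446 to 2434 RPKM in 4 of the non-tuft libraries and 7935 RPKM in non-tuft 3. Of 7 islet markers 2 were called lower (Ppy and Chga). That count fell to 0 when non-tuft 1 or tuft 2, 3, 4 or 5 was left out, was 1 when non-tuft 3 or 5 or tuft 1 was, and reached 4 when non-tuft 4 was. The islet sum was 21583 RPKM in non-tuft library 1, 2.36 in non-tuft library 4 and 553 to 2387 in the other 3 non-tuft libraries. Tuft libraries had islet sums of 0.484 to 30.1 RPKM. Of 2 leukocyte markers in the table only Ptprc, the gene for Cd45, was called higher in tuft cells, at 2.74 to 4.33 against 0 to 1.93, although both populations were sorted as Cd45-neg. None of the 5 stromal markers was called. The part of these cell types in the trypsinogen values was not tested.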

How the data were processed

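The deposited table held, for each library, log2 values that the authors made from 50 bp single-end reads mapped to mm9 with HISAT2 and quantified with StringTie and Ballgown in RPKM. Genes with little variance were left out by them, and they then added 1, took log2 and quantile normalized. How multimapped reads were treated and tool versions are not given in the sources used here. The authors' own fold ratios and p-values in the deposited table were not used. Read counts were not used here, so depth is unknown.

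Groups and numbers came from the sample records. Values were fitted in R 4.3.3 with limma 3.58.1 (lmFit, then eBayes at default settings) over all 12160 genes, with Benjamini-Hochberg adjustment. The fit was tested on simulated data in which a gene had the same SD in both groups. That simulation did not cover the wider tuft spread of the trypsinogens. Members and gene lists were chosen with earlier results of these data known. Named genes were all members, all listed genes of the trypsinogen, activator, zymogen, transcription factor and receptor lists, the 3 with the smallest p of every other list, the 5 nearest in profile and the sort markers, without 2 list genes that are not reported here and were left out of the lists. Of the marker lists, 2 of 8 leukocyte and 5 of 6 stromal genes were in the table. Identities came from global alignment in Biopython 1.88 of GENCODE transcripts on NCBIM37. Alternatives were other pseudocounts, filters and centring, trend and robust eBayes, a replicate block, leaving out each library, other call thresholds and setting the floor to 0. Each log2 difference is on the log2(RPKM + 1) scale and understates the change of low genes.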

Additional observations from a re-analysis of the deposited data

Results flagged for a closer look

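Values far from the other 4 libraries of their group were looked for in 22 groups by Dixon's test, which flags about 1 in 20 groups by chance. Prss2 in non-tuft library 3 was at 12.53 on the log2 scale, apart from the next value of 13.11. Try5 in the same library was at 9.21, with the next value at 10.97. The same library had the highest ductal marker sum of the 10 libraries, 7935 RPKM against 1446 to 2434 in the other non-tuft libraries, and the lowest acinar marker sum of the non-tuft libraries, 53022 RPKM, whose part in these values was not tested. Spink1 amounted to 23.4% of the summed trypsinogens in tuft library 5, and the next tuft library was at 6.04%.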

How the results depend on the processing

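Depth is unknown, and 5 libraries a group with a wide tuft spread limit the precision of every trypsinogen value. Direction was unchanged for all 7 members under all 17 alternatives. Prss1, Try5 and Spink1 were called under all of them and Try4 under none. Prss2 was called only without tuft library 4. Try10 was not called with a pseudocount of 0.1 (adjusted p 0.0687 in limma), and Prss3 was not called with a pseudocount of 0.1 (0.0704), with trend and robust eBayes (0.0747) or without any library other than tuft library 4. The cause was not tested. The number of members called lower was 3 with a pseudocount of 0.1 and 3 at an adjusted p under 0.01, and 4 to 6 when 1 library was left out. Summing all 12 listed trypsinogen genes gave a log2 difference of −3.23.

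The number of genes called higher was 162 with a pseudocount of 10 and 1289 when centred on 80 ribosomal protein genes, against 525, and 447 to 533 when 1 library was left out. The number called lower was 116, 225 and, at an adjusted p under 0.01, 292, against 485, and 394 to 477 when 1 library was left out. Centring moved the median log2 difference of all genes from 0.02 to 0.82, so that all members were lower relative to either. Other trypsinogen genes called lower numbered 2 with a pseudocount of 0.1, 3 with trend and robust eBayes, 1 at an adjusted p under 0.01 and 2 to 5 when 1 library was left out. Zymogens called lower numbered 4 at an adjusted p under 0.01 and acinar transcription factors 2 with a pseudocount of 10, and 5 to 7 and 3 to 4 when 1 library was left out.

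Over 55 other named genes and their alternatives, 818 of 928 values kept direction and call, 91 lost a call and 6 gained one. The 13 that changed sign belonged to genes that were not called. Centring gave 0.75 for Ctsd, 0.38 for Gata4 and 0.24 for Col1a2. Leaving out 1 library at a time gave −0.28 to 0.11 for Ctsd, −0.012 to 0.46 for F2r, −0.12 to 0.32 for Xbp1, −0.36 to 0.51 for Csf1r and −1.40 to 0.72 for Col1a2.

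The replicate number is shared between the groups, but the sources used here do not say that a number marks a mouse. Deviations from the group means of same-numbered libraries correlated across genes at 0.124, 0.0792, 0.115, 0.0619 and 0.240. All were positive, but not over 0.1 in every pair. Between libraries of different number the correlations ran from −0.174 (non-tuft 5 with tuft 1) to 0.139 (non-tuft 5 with tuft 3). Most of those were negative, which is partly built in, because deviations from a group mean cancel out over the libraries of the group. Every library other than non-tuft 2, tuft 1 and tuft 3 correlated best with the library of its own number. With the replicate block, 5 members were called lower and 518 and 491 genes were called higher and lower, and adjusted p was 0.0136 for Prss1, 0.0374 for Prss3 and 0.110 for Try4, with no call of a member changed. Of the other named genes Nr5a2, Cela2a, Cldn2 and Tff2 lost their call with the block (adjusted p 0.0597, 0.0588, 0.0635 and 0.0726).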
